A study of Mus musculus with 6 samples.

Results

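The smooth muscle contractile genes described here are 10 genes tied to the transcription factor SRF: Acta2, Actg2, Myl9, Tpm1, Tpm2, Cnn1, Cnn2, Tagln, Tagln2 and Srf itself. They were named as a list and found by symbol among 41388 Ensembl gene rows of the count table, and all 10 were found and passed the count filter that left 14717 genes. The list was selected on the same knockout against wild-type contrast that is described below, so its differences are given as a description, with no test. The data are 6 strand-specific poly(A) RNA-seq libraries of C57BL/6 mouse induced pluripotent stem cells (iPSCs), 3 from miR-34a-/- lines and 3 from wild-type lines. Both genotypes were reprogrammed from fibroblasts of E13.5 littermate embryos with retroviral Oct4, Sox2 and Klf4, each line grew out of a picked colony, and all lines were kept on irradiated fibroblast feeders. The question of the design is what the loss of miR-34a, a small RNA under the control of p53, does to the transcripts of pluripotent cells.

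Smooth muscle shortens when myosin pulls on actin filaments, and the strength of the pull is set by phosphorylation of the regulatory myosin light chain and by tropomyosin, calponin and transgelin on the filaments. Many genes of this apparatus carry CArG boxes, the short sites that SRF binds. SRF works with 2 classes of cofactor: myocardin-related factors (MRTFs), which are released when actin monomers are used up and favour cytoskeletal genes, and ternary complex factors (TCFs), which answer MAP kinase signals and favour immediate early genes. The same contractile genes are also active outside muscle, in fibroblasts and other adherent cells.

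The CArG sequences are shown because this is the site through which SRF is known to bind its targets. The 300-base RefSeq promoter windows (GRCm38.p6, the mm10 assembly, 250 bases before to 50 after the start) were searched for the CArG box, which is a pair of C, a run of 6 A or T and a pair of G, and for near matches in which 1 of the 6 is C or G. Both read the same on either strand, and no other motif was searched. A window was held for 8 of the 10 genes; Tagln and Actg2 had none. A box was found in 3 of the 8, Cnn2, Myl9 and Srf, while 1.57% of 27025 promoter windows held one. With near matches, found in Acta2 and a second time in Myl9, the count was 4 of 8, against 2702 of the 27025 windows. The genes were listed for their tie to SRF, so nothing is read from these counts. The letters were not found in the windows of Cnn1, Tpm1, Tpm2 and Tagln2. Each stretch below is 30 bases, with the match in capitals. The Acta2 stretches lie in a GENCODE exon of that gene, and the others lie outside the GENCODE bounds of their genes.
Acta2 near match, 84 bases before the start, chr19:34255438-34255467, minus strand: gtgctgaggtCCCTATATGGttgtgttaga
Acta2 near match, 34 bases before, chr19:34255388-34255417, minus strand: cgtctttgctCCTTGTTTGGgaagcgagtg
Myl9 box, 161 bases before, chr2:156775293-156775322, plus strand: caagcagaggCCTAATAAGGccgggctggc
Myl9 near match, 99 bases before, chr2:156775355-156775384, plus strand: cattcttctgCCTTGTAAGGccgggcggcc
Cnn2 box, 56 bases before, chr10:79988534-79988563, plus strand: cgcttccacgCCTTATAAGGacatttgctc
Srf box, 82 bases before, chr17:46556225-46556254, minus strand: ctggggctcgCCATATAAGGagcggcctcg
Srf box, 62 bases before, chr17:46556205-46556234, minus strand: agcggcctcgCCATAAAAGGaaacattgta

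The other sequence the design turns on is the deleted microRNA. The mature miR-34a-5p (RefSeq, GRCm38.p6, chr4:150068473-150068494, plus strand) is printed with its seed, bases 2 to 8, in capitals, and pairs with CACTGCC in a target. The longest annotated 3' UTR of Tagln and of Cnn2 each held 1 such match, the other 8 genes held none, and 17.1% of 13470 tested genes with an annotated 3' UTR held at least 1. The 2 sites are printed with their flanks and the match in capitals. A match is a description of the letters and not a measured site.
miR-34a-5p: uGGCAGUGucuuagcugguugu
Tagln: cccagagccacCACTGCCctggcccctgt
Cnn2: acgggcccctgCACTGCCagaaaatgtga

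Libraries held 7935323 to 27933272 counts in genes, so that 3 counts, taken as the floor of detection, correspond to 0.107 to 0.378 CPM. CPM are counts scaled to the same library depth, here after TMM factors, and levels are means ± SD over n = 3 lines. Markers of pluripotency were abundant in all lines: the summed level of 10 such genes was 7050 to 7180 CPM in the wild-type and 8260 to 8710 CPM in the knockout libraries. Of the 10, 7 rose, 2 fell and 1 was not called in edgeR (median log2 fold change 0.30), where 26.5% of all tested genes rose and 24.0% fell. The part of this pluripotency difference in the levels of the contractile genes was not tested. The most abundant, Dppa5a, Pou5f1, Esrrb and Tdgf1, had log2 fold changes of 0.38, 0.44, 0.45 and 0.56. The 2 that fell, Utf1 and Lin28a, named after their values were seen, had log2 fold changes of -0.23 and -0.75 (edgeR adjusted p = 0.0025 and 4.0e-08). The name smooth muscle is used here for gene function, and cell type was not tested. Myocd, the smooth muscle and heart cofactor of SRF, was at 0.195 ± 0.0613 CPM in the wild-type and 0.202 ± 0.093 CPM in the knockout lines, and did not pass the count filter. Myh11, the smooth muscle myosin heavy chain and a defining marker, was at 1.43 ± 0.401 against 0.876 ± 0.123 CPM.

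Of the 10 genes, 8 were lower in the knockout and separated the genotypes completely, Tagln2 was slightly higher, and Srf overlapped between genotypes. In the fit across all genes 8 were called lower and 1 higher at an edgeR adjusted p under 0.05, where 24.0% of all tested genes were called lower and 26.5% higher. Every knockout library lay below every wild-type library for 8 genes, as it did for 26.9% of all tested genes, and above for 1, as for 29.2%. Nothing is read from these counts, since the same contrast chose the genes. The median log2 fold change (knockout over wild-type) of the 10 was -1.48, beside 0.01 over all genes tested. In bulk RNA, fewer cells that express a gene and less of its RNA per cell cannot be told apart.

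Both smooth muscle actins were lower in every knockout line than in any wild-type line, and by nearly the same factor. Acta2 (ENSMUSG00000035783, chromosome 19, 34241090 to 34255590, minus strand), the vascular smooth muscle alpha-actin, was at 151, 182 and 148 CPM in wild-type replicates 1 to 3 and at 46.9, 45.1 and 44.9 CPM in knockout replicates 1 to 3. The knockout lines were almost alike, and the spread lay on the wild-type side, where replicate 2 was highest. The knockout mean was 28.4% of the wild-type mean (log2 fold change -1.81, SE 0.073). Actg2 (ENSMUSG00000059430, chromosome 6, 83512905 to 83536265), the enteric smooth muscle gamma-actin, was at 9.72, 7.51 and 8.64 CPM in the wild-type and 2.48, 2.97 and 1.96 CPM in the knockout lines. Its libraries did not overlap either, with a knockout mean at 28.7% of wild-type (log2 fold change -1.75, SE 0.16), although the rarest count was 16, in knockout replicate 3. Acta2 and Actg2 thus had nearly the same relative difference at very different levels, 73.2 and 5.54 CPM per kb of exon in the wild-type lines.

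Transgelin paralleled the alpha-actin. Tagln (ENSMUSG00000032085, chromosome 9, 45929619 to 45936058), an actin-binding protein also known as SM22-alpha, was at 162, 172 and 156 CPM in the wild-type and at 46.8, 45.7 and 47.5 CPM in the knockout lines. The knockout mean was 28.5% of wild-type, as for Acta2 (log2 fold change -1.81, SE 0.058). The ratio of Acta2 to Tagln counts stayed between 0.934 and 1.06 in the 6 libraries, with no separation of the genotypes. On the opposite strand Tagln shares 108 exonic bases with Pcsk7 and 1241 with the antisense gene Gm48529. The strand setting of the count step is not recorded in the labels, so reads from these genes may not be told apart. Its paralog Tagln2 (ENSMUSG00000026547, chromosome 1, 172500047 to 172507380), the form common outside muscle, was at 151, 153 and 167 CPM in the wild-type and 178, 181 and 174 CPM in the knockout lines. It was higher in each knockout line, by a narrow margin (log2 fold change 0.18, SE 0.054). Without wild-type replicate 1 or 2 the log2 fold change was 0.14 or 0.16, and with library GC trends removed 0.05, and in these settings the gene was not called. That setting subtracts from each library its smooth trend over gene GC content. Counts of Tagln per count of Tagln2 were 0.938 to 1.12 in the wild-type and 0.253 to 0.273 in the knockout libraries. This separation follows from that of each gene, in opposite directions.

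**Figure D1:**
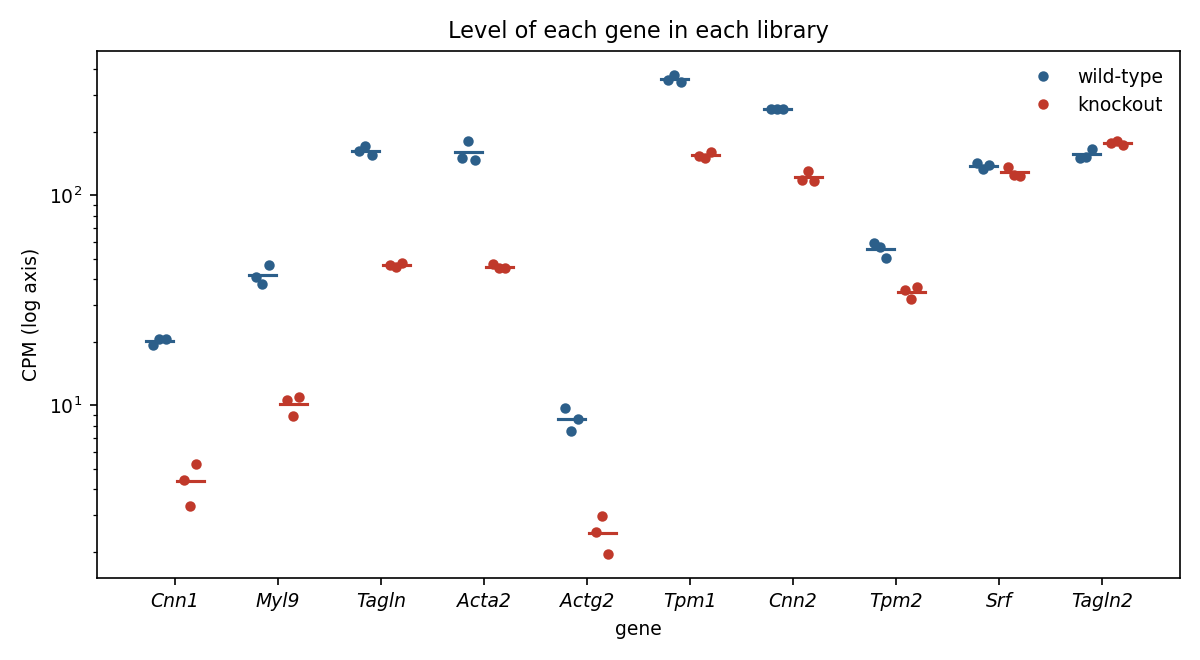
Level of the 10 genes in CPM (log axis) in each wild-type (blue) and knockout (red) library, with points for the 3 lines and a bar for their mean, ordered by fold change. The genotypes are apart for the genes from Cnn1 to Tpm2 and meet at Srf, while the knockout points of Tagln2 at 174 to 181 CPM lie just above the wild-type ones at 151 to 167 CPM.

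The calponins differed in size of change. Cnn1 (ENSMUSG00000001349, chromosome 9, 22099216 to 22109630), the basic calponin of differentiated smooth muscle, was at 19.3, 20.8 and 20.6 CPM in the wild-type and 4.41, 3.33 and 5.27 CPM in the knockout lines. This was the largest relative difference of the 10, with 21.4% of the wild-type level left (log2 fold change -2.30, SE 0.13). Cnn2 (ENSMUSG00000004665, chromosome 10, 79988584 to 79996062), a calponin found in many cell types, was at 258, 259 and 257 CPM in the wild-type and 118, 131 and 117 CPM in the knockout lines. The wild-type lines were almost identical, and 47.4% of their level was left in the knockout (log2 fold change -1.07, SE 0.055). Counts of Cnn1 per count of Cnn2 were 0.0749 to 0.0804 in the wild-type and 0.0253 to 0.0452 in the knockout libraries, without overlap.

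Myl9 (ENSMUSG00000067818, chromosome 2, 156775420 to 156781658) encodes the regulatory light chain of smooth muscle and nonmuscle myosin, whose phosphorylation triggers contraction. It was at 40.9, 37.9 and 46.4 CPM in the wild-type and at 10.6, 8.87 and 11 CPM in the knockout lines. The groups were far apart, with 24.4% of the wild-type mean left (log2 fold change -2.08, SE 0.097).

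The tropomyosins, which lie along the actin filament and gate myosin, differed less, and Tpm2 the least of the 8 lower genes. Tpm1 (ENSMUSG00000032366, chromosome 9, 67022590 to 67049406) was at 354, 376 and 349 CPM in the wild-type and at 154, 151 and 161 CPM in the knockout lines (43.2% of wild-type, log2 fold change -1.21, SE 0.053). Tpm2 (ENSMUSG00000028464, chromosome 4, 43514711 to 43523765) was at 59.3, 57.0 and 50.1 CPM against 35.5, 32.1 and 36.5 CPM (62.6%, log2 fold change -0.69, SE 0.076). The Tpm1 to Tpm2 count ratio was 5.96 to 6.98 in the wild-type and 4.34 to 4.70 in the knockout libraries, without overlap. Tpm1 and Tpm2 make muscle and nonmuscle isoforms by splicing, and counts per gene do not separate them.

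Srf (ENSMUSG00000015605, chromosome 17, 46548329 to 46556175), the factor itself, was at 142, 133 and 139 CPM in the wild-type and at 137, 125 and 124 CPM in the knockout lines. These groups overlapped, and the log2 fold change was -0.11 (SE 0.056). It was called lower in 2 alternatives, without knockout replicate 1 (-0.15) and with library GC trends removed (-0.24). Per count of Srf there were 1.06 to 1.37 counts of Acta2 in the wild-type and 0.343 to 0.363 in the knockout libraries.

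**Figure D2:**
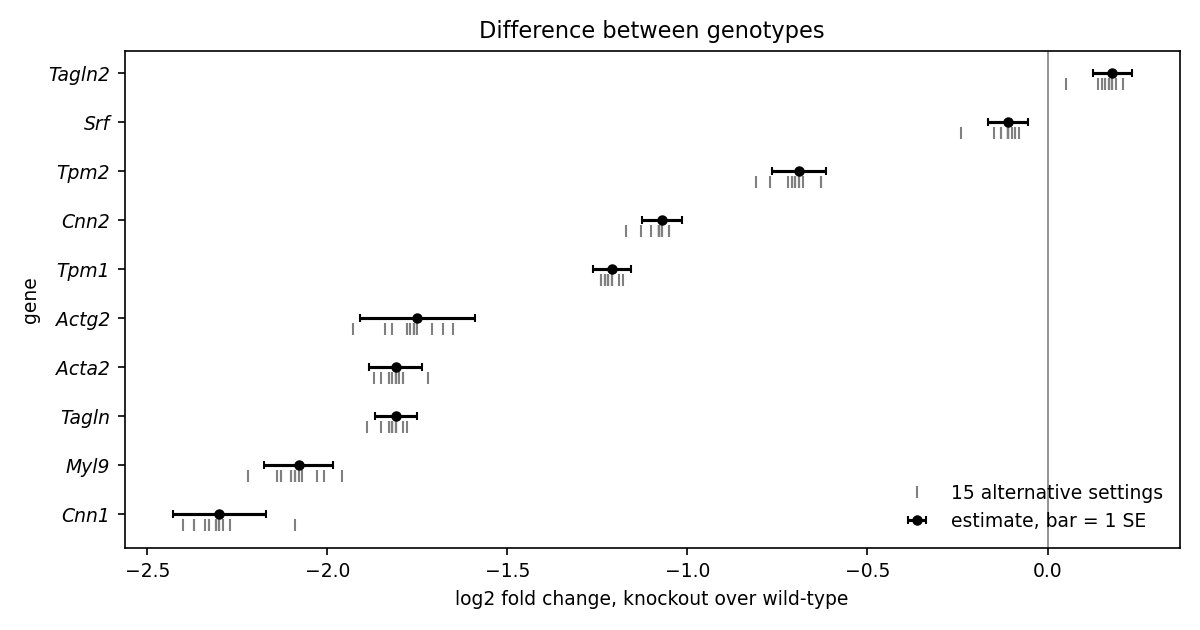
Log2 fold change of each gene, knockout over wild-type (black point, bar of 1 SE), with the values under the 15 alternative settings as grey ticks. Cnn1 lies farthest left at -2.30, the other contractile genes range up to -0.69 for Tpm2, and none of the ticks of these 8 genes reaches 0.

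Ordered by level per exon length in the wild-type lines, the genes ran from Cnn2 (105 CPM per kb) through Tagln (82.3), Tagln2 (75.5), Acta2 (73.2), Tpm1 (55.5), Srf (47.8), Myl9 (35.9), Tpm2 (19.1) and Cnn1 (7.40) to Actg2 (5.54). Neighbours that overlapped over the 3 lines were Tagln and Tagln2, at 78.7 to 86.6 and 72.6 to 80.1 CPM per kb, and Acta2, at 67.5 to 83.1, which overlapped both. In the knockout lines Tagln2 led at 85.2 CPM per kb, followed by Cnn2 (49.6) and Srf (44.4), and Acta2 stood at 20.8. Tpm1 (23.2 to 24.9) and Tagln (23.0 to 23.9) overlapped there, as did Cnn1 and Actg2, both at a mean of 1.59. The coefficient of variation between lines was 0.388% to 12.8% in the wild-type and 1.93% to 22.5% in the knockout lines, and the highest value belonged to Cnn1, with 43 to 93 counts per knockout library.

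**Figure D3:**
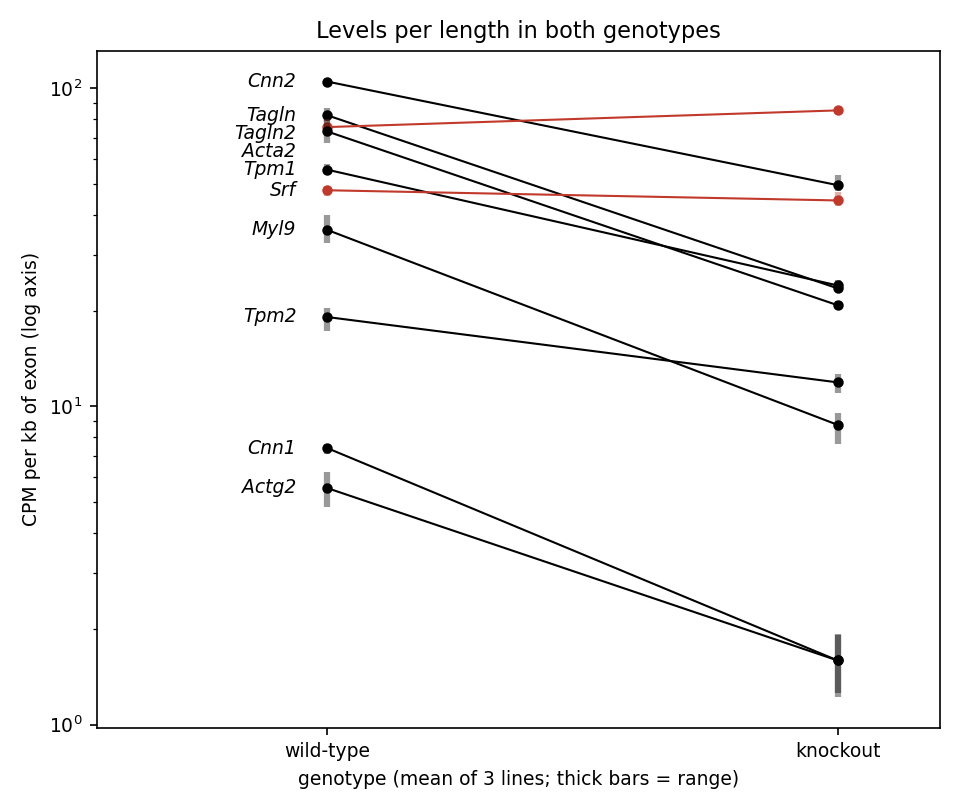
Mean level in CPM per kb of exon (log axis) in wild-type and knockout lines, joined by a line per gene, with thick bars for the range over 3 lines. Srf and Tagln2, in red, run nearly level, while the other 8 genes, in black, go down; Tagln2 has rank 3 in the wild-type and rank 1 in the knockout lines.

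Summed over the 10 genes, the level was 1340 to 1400 CPM in the wild-type and 722 to 734 CPM in the knockout libraries. Some ratios between the genes overlapped between genotypes: counts of Acta2 per count of Actg2 were 15.6 to 24.3 in the wild-type and 15.2 to 22.9 in the knockout libraries, and counts of Myl9 per count of Acta2 were 0.208 to 0.313 and 0.197 to 0.246. Counts of Cnn1 per count of Tagln did not overlap, at 0.119 to 0.132 in the wild-type and 0.0728 to 0.111 in the knockout libraries.

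The genes lie on 8 chromosomes, with 3 on chromosome 9 (Tagln, Cnn1 and Tpm1). Over the 823 tested genes of chromosome 9 the median log2 fold change was 0.01, and over the other 7 chromosomes the medians were -0.07 to 0.03. To set each gene beside others of like base composition, tested genes of at least 5 CPM within 2 percentage points of its GC content were examined, and their median log2 fold changes were -0.01 to 0.12. Of the 50-base stretches in their annotated transcripts, 99.7% were unique to Acta2, 99.4% to Tagln2 and 100% to each of the other 8 genes. Transcripts were compared in their own orientation only, so the opposite-strand overlaps of Tagln lie outside this check.

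The closest paralogs of the 10 genes, which the rule did not list, put these differences in the context of their protein families. Of 12 paralogs tested, 0 rose, 7 fell and 5 were not called, with a median log2 fold change of -0.18. Over all genes tested 26.5% rose and 24.0% fell. The strongest falls were in the striated muscle actins. Acta1, skeletal muscle alpha-actin, was at 18.7, 22.8 and 19.1 CPM in the wild-type and 2.94, 2.68 and 2.94 CPM in the knockout lines (log2 fold change of -2.82 with SE 0.128, adjusted p = 1.3e-12 by edgeR). Actc1, cardiac alpha-actin, fell from 2.57 ± 0.918 to 0.518 ± 0.156 CPM (log2 fold change of -2.19, adjusted p = 8.3e-06 by edgeR). Acta2 and Actg2, the other muscle forms among the 6 actin genes, were at 28.4% and 28.7% of wild-type, but were chosen on this contrast.

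The cytoplasmic actins, which make up nearly all actin RNA of these cells, differed little. Actg1 was at 2570 ± 160 CPM in the wild-type and 2530 ± 208 CPM in the knockout lines (log2 fold change of -0.02, adjusted p = 0.81 by edgeR), and Actb at 5530 ± 104 against 5000 ± 183 CPM (log2 fold change of -0.14, adjusted p = 0.039 by edgeR). The Actb call was lost when any library but knockout replicate 1 was left out, with adjusted p from 0.055 to 0.15. Acta2 supplied 2.12% to 2.70% of actin RNA per exon length in the wild-type and 0.70% to 0.763% in the knockout libraries.

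Shares within the other families, like that of Acta2, include genes chosen on this contrast and are given as a description. Tpm3 fell from 510 ± 39.4 to 275 ± 17.4 CPM (log2 fold change of -0.89, adjusted p = 7.2e-10 by edgeR) and Tpm4 from 87.5 ± 5.27 to 54.2 ± 2.04 CPM (-0.68, adjusted p = 3.6e-08). Tpm1 and Tpm2, also lower, were chosen on this contrast. Summed per exon length, tropomyosin RNA was 193 to 202 CPM per kb in the wild-type and 103 to 109 in the knockout libraries. Cnn3, the acidic calponin, was at 484 ± 30.1 against 531 ± 25.6 CPM (log2 fold change of 0.13, adjusted p = 0.067 by edgeR, 0.028 if wild-type replicate 3 was left out), and its share of calponin RNA was 57.2% to 60.3% in the wild-type and 75.6% to 78.9% in the knockout libraries. Tagln held 49.0% to 53.5% of transgelin RNA in the wild-type and 20.6% to 21.9% in the knockout libraries, while the neuronal form Tagln3 was at 2.00 ± 0.169 and 1.99 ± 0.198 CPM (edgeR adjusted p = 0.85). Myl9 supplied 18.3% to 20% of regulatory light chain RNA in the wild-type and 5.12% to 6.14% in the knockout libraries, the rest coming from the nonmuscle chains.

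Among those nonmuscle chains, Myl12a fell from 348 ± 43.2 to 299 ± 8.09 CPM (log2 fold change of -0.22, adjusted p = 0.02 by edgeR), a call lost without knockout replicate 1 or 2 or wild-type replicate 3 (adjusted p = 0.078, 0.073 and 0.095). Myl12b was at 141 ± 19.2 and 148 ± 4.15 CPM (edgeR adjusted p = 0.48, or 0.014 if wild-type replicate 3 was left out). The essential light chain gene Myl6 was at 275 ± 19.3 and 270 ± 45.5 CPM (edgeR adjusted p = 0.87), and Myl6b fell from 6.52 ± 0.835 to 4.66 ± 0.00783 CPM (log2 fold change of -0.50, adjusted p = 0.0056 by edgeR).

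Of 17 listed cofactors and upstream regulators of SRF, 16 were tested, of which 1 rose, 5 fell and 10 were not called (median log2 fold change -0.10). Over all 14717 genes tested, 26.5% rose and 24.0% fell, and 7284 were not called, which is the background for this and each list below. The MRTF genes, named here after their values were seen, were not called: Mrtfa was at 38.8 ± 3.72 CPM in the wild-type and 36.9 ± 1.03 CPM in the knockout lines (log2 fold change of -0.06, adjusted p = 0.53 by edgeR), and Mrtfb at 35.2 ± 1.69 and 38.6 ± 1.11 CPM (0.12, adjusted p = 0.14). Mrtfa passed the threshold once library GC trends were removed (-0.20, adjusted p = 0.024). Of the TCF genes, Elk1 rose from 34.1 ± 0.334 to 54.9 ± 1.06 CPM (log2 fold change of 0.69 with SE 0.063, adjusted p = 2.7e-08 by edgeR), while Elk3 and Elk4 had log2 fold changes of 0.08 and -0.08 (edgeR adjusted p = 0.47 for both).

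The 5 regulators that fell were Arhgef1, Rock2, Diaph1, Rock1 and Fhl2. Arhgef1, a guanine nucleotide exchange factor, fell from 240 ± 3.14 to 137 ± 11.1 CPM (log2 fold change of -0.80 with SE 0.058, adjusted p = 1.0e-09 by edgeR). The kinase gene Rock2 fell by 0.72 and the actin nucleator gene Diaph1 by 0.46 on the log2 scale (edgeR adjusted p = 2.8e-06 and 5.6e-07), and Rock1 fell by 0.33, a call lost with library GC trends removed (adjusted p = 0.34). Fhl2, a LIM-domain protein that binds SRF, fell from 5.89 ± 1.09 to 3.15 ± 0.443 CPM.

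Other cytoskeletal targets of SRF went both ways, more of them down. Of 31 tested, 5 rose, 13 fell and 13 were not called, and the median log2 fold change was -0.13. Thbs1, the matrix protein thrombospondin, fell from 401 ± 46.5 to 93.2 ± 8.39 CPM (log2 fold change of -2.10 with SE 0.092, adjusted p = 1.2e-08 by edgeR), about as far as the contractile genes. The LIM-domain genes Fhl1, Zyx and Pdlim7 fell by 0.95, 0.61 and 0.53 on the log2 scale (edgeR adjusted p = 2.6e-09, 1.0e-07 and 2.7e-07). Chosen after their values were seen, Vcl and Cald1, the vinculin and caldesmon genes, fell by 0.55 and 0.49, and Tgfb1i1, a focal adhesion adaptor active in smooth muscle, fell from 10.7 ± 1.33 to 4.56 ± 0.0431 CPM.

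Other cytoskeletal targets rose. Cav1, the caveolin of cell surface pits, rose from 16.6 ± 1.83 to 43.6 ± 2.94 CPM (log2 fold change of 1.42 with SE 0.085, adjusted p = 6.4e-11 by edgeR). The actin crosslinker gene Flna rose by 0.33 (edgeR adjusted p = 0.00029). The other genes that rose, Ccn1, Ccn2 and Ankrd1, named after their values were seen, had log2 fold changes of 0.78, 0.39 and 1.00. The abundant Cfl1 and Myh9, cofilin and a nonmuscle myosin heavy chain, had log2 fold changes of -0.08 and -0.13 (edgeR adjusted p = 0.57 and 0.1). Myh9 was called lower in 4 alternatives, among them without knockout replicate 1 (-0.20, adjusted p = 0.03).

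Immediate early targets of SRF, which cells switch on within minutes of growth factor signals, went the other way. Of 13 tested, 10 rose, 2 fell and 1 was not called, with a median log2 fold change of 0.47. The zinc finger gene Egr1 rose from 50.1 ± 6.35 to 142 ± 1.38 CPM (log2 fold change of 1.5 with SE 0.074, adjusted p = 2.0e-11 by edgeR). Its relatives Egr2 and Egr3 rose from 1.54 ± 0.291 to 5.12 ± 0.189 and from 0.376 ± 0.121 to 5.36 ± 0.76 CPM, and the stress-induced Atf3 from 7.22 ± 1.48 to 12.8 ± 0.63 CPM. Egr3 had only 12, 2 and 6 counts in the wild-type libraries. Ier2 rose by 0.37, Dusp1, a MAP kinase phosphatase, by 0.47 and the survival gene Mcl1 by 0.13 (edgeR adjusted p = 1.3e-05, 0.0076 and 0.035). The Mcl1 call was lost in 9 alternatives, each left-out library included. The 2 that fell, Junb and Klf6, named after their values were seen, had log2 fold changes of -0.18 and -0.22 with overlapping libraries, and both calls were lost without knockout replicate 1 (adjusted p = 0.14 and 0.073) or wild-type replicate 2 (0.087 and 0.064), and that of Junb also without wild-type replicate 3 (0.12) and in DESeq2 (0.051). With library GC trends removed the log2 fold change of Klf6 was -0.05 (adjusted p = 0.63). Whether the immediate early and the cytoskeletal targets differ as lists was not tested.

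**Figure D4:**
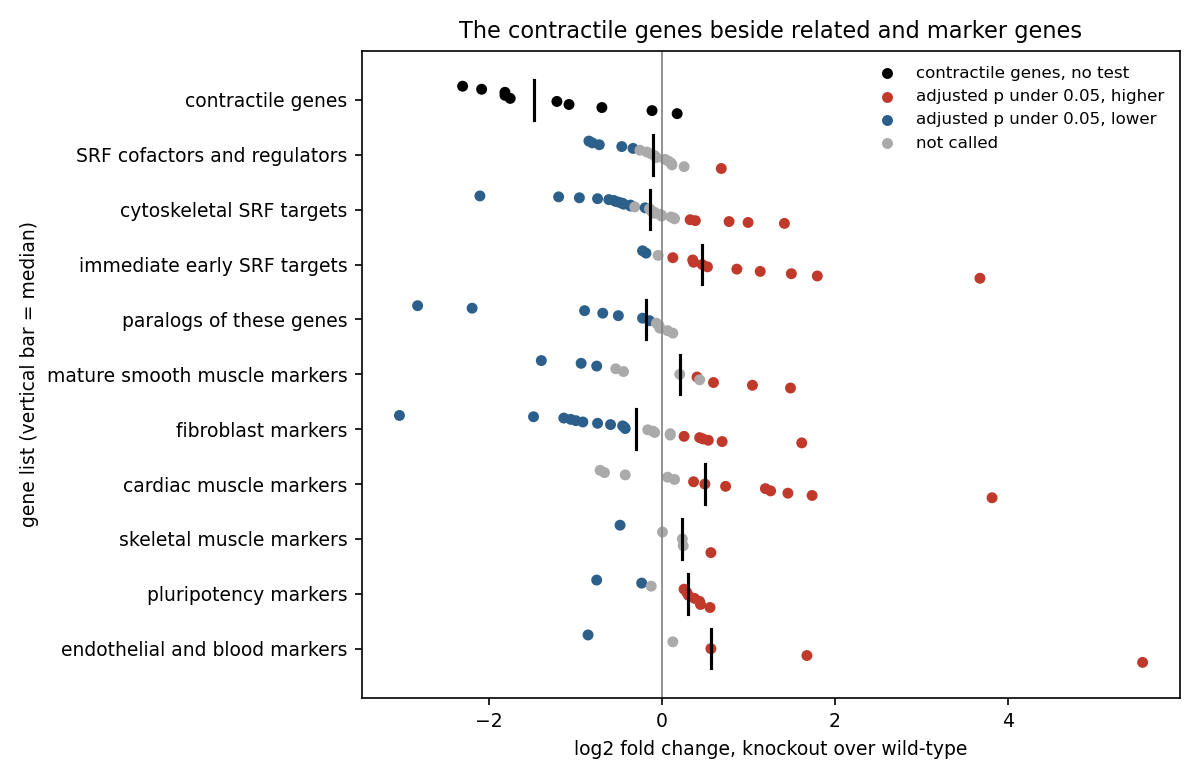
Log2 fold change, knockout over wild-type, of the contractile genes (black, no test) and of each tested gene of the related and marker lists (red called higher, blue called lower, grey not called), with a bar at each list's median. The contractile genes have their median at -1.48, the immediate early SRF targets at 0.47 and the cytoskeletal SRF targets at -0.13.

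Markers of other cells that express the contractile genes were examined beside them. Of 24 fibroblast markers, which feeder cells would bring, 22 were tested, of which 6 rose, 11 fell and 5 were not called (median log2 fold change -0.29). Their summed level overlapped between genotypes, at 3270 to 3620 CPM in the wild-type and 3200 to 3540 CPM in the knockout libraries, and most of it was fibronectin: Fn1 was at 2140 ± 17.3 and 2020 ± 79 CPM (edgeR adjusted p = 0.21). Col1a1 fell from 254 ± 48.7 to 127 ± 18.3 CPM (log2 fold change of -0.99, adjusted p = 0.014 by edgeR, 0.059 if knockout replicate 2 was left out). Vim rose by 0.44 and Fbln2 by 0.26 (edgeR adjusted p = 0.026 and 0.034), Vim losing its call without knockout replicate 1 or 2 (0.077 and 0.093) and Fbln2 in 6 alternatives, among them without knockout replicate 1 (0.1) and without knockout replicate 2 or 3 or wild-type replicate 3 (0.06 each). Lum and Fap, named after their values were seen, had 0 counts in the knockout libraries. Their means were 0.0847 and 0.104 CPM in the wild-type libraries, and neither passed the count filter. Postn and Col3a1, named after their values were seen, fell by 3.03 and 1.48 on the log2 scale and S100a4 and Timp1 rose by 1.62 and 0.70. The part of fibroblasts in the levels of the contractile genes was not tested.

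Of 12 markers of mature smooth muscle, 11 were tested, of which 4 rose, 3 fell and 4 were not called (median log2 fold change 0.21), beside the 26.5% that rose and 24.0% that fell over all genes. For these markers the summed level was 77.5 to 83.4 CPM in the wild-type and 103 to 112 CPM in the knockout libraries. Most of this sum was Smtn, at 42.6 ± 1.98 and 56.5 ± 4.53 CPM, and Des, at 15.1 ± 0.575 and 31.4 ± 0.917 CPM. Smtn and the intermediate filament genes Des and Synm rose by 0.41, 1.05 and 0.60 on the log2 scale (edgeR adjusted p = 5.8e-05, 1.6e-09 and 0.0023), and Lmod1, a leiomodin, was at 4.61 ± 1.55 and 3.22 ± 0.333 CPM (edgeR adjusted p = 0.068, or 0.031 if wild-type replicate 3 was left out). The other marker that rose was Mylk, a myosin light chain kinase gene named after its values were seen. It went from 0.419 ± 0.0713 to 1.13 ± 0.0758 CPM (log2 fold change of 1.49, adjusted p = 0.001 by edgeR), with only 9, 4 and 6 counts in the wild-type libraries. The myosin marker Myh11 fell by 0.75 (edgeR adjusted p = 0.03). That call was lost in DESeq2 (0.17), without wild-type replicate 1 (0.33) and without any knockout library (0.051 to 0.079). The other markers that fell, Pcp4l1 and Nexn, named after their values were seen, had log2 fold changes of -1.39 and -0.93 (edgeR adjusted p = 3.3e-05 and 0.0016).

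By Pearson's r of log2 CPM over the 6 libraries, the genes outside the list most like Acta2 among 10304 of at least 5 CPM were Seh1l (r = 0.9992), Rbm15b (0.9989), Acta1 (0.9986), Nipsnap1 (0.9985) and Stoml1 (0.9981). Those most like Tagln were Serpinb6a (0.9994), Acta1 (0.9994), Nipsnap1 (0.9992), Grhl2 (0.9990) and Patj (0.9989). The likeness is a description of 6 points in 2 groups: an r over 0.99 was reached by 161 genes for Acta2 and 202 for Tagln. Acta1 alone of these 8 genes had a difference as large as theirs, the other log2 fold changes being -0.24 to -1.01.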

How the data were processed

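The authors deposited raw counts per feature for each library, and per the submitters' processing notes TopHat2 2.0.11, featureCounts 1.4.5 and mm10 were used. Counting options are not stated there. Of 42290 rows, 41388 are Ensembl genes; the 902 repeat families were left out of library sizes and tests. In a second table the names of 6 columns could not be tied to a label; it was left aside. Symbols and exon lengths came from GENCODE M21 (mm10), which matched 40254 identifiers, and promoter and microRNA sequences from RefSeq tables (GRCm38.p6).

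The test was that of edgeR 4.0.16 (R 4.3.3): filterByExpr, TMM factors, and the two-sided quasi-likelihood F test (robust = TRUE) of knockout against wild-type in all 6 libraries, with Benjamini-Hochberg adjustment over the 14717 genes and a threshold of 0.05. SE is the log2 fold change over the square root of F. The steps were tested on simulated counts. P-values weigh the genotypes against the spread between lines; the labels do not say which lines share an embryo.

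The members, 4 pathway lists and 6 marker lists were chosen with earlier results of these data known. Named genes are all members and paralogs, per pathway list the 5 called genes with the smallest p and the 3 most abundant, per marker list the 4 most abundant, and the 5 genes most like Acta2 and most like Tagln. One result under this rule is not reported here. Alternatives were DESeq2 size factors, library totals only, DESeq2 1.42.0, limma 3.58.1 voom, a filter of only 1 count, one of 1 CPM in 3 or more libraries, a replicate block, robust = FALSE, library GC trends removed, and each library left out.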

Additional observations from a re-analysis of the deposited data

How the results depend on the processing

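The contractile genes were chosen on this contrast, so their values under the 15 alternatives are a description: the log2 fold change was -2.40 to -2.09 for Cnn1, -1.87 to -1.72 for Acta2 and -0.81 to -0.63 for Tpm2, and the median of the 10 genes was -1.53 to -1.44. Counting calls among these genes was added after the data were seen. The count of genes called higher went from 1 to 0 (Tagln2) with library GC trends removed and was 0 to 1 when a library was left out. With GC trends removed Srf made a ninth gene called lower, as it did without knockout replicate 1. Over the alternatives that leave out a library, 14 to 18 pathway genes were called higher and 24 to 29 lower, and 8 to 12 fibroblast markers lower, against 16, 27 and 11 with all libraries. With library GC trends removed 17 pathway genes were called higher, 33 lower and 12 fibroblast markers lower. Deviations of same-numbered libraries correlated at 0.228, -0.01 and 0.215 for numbers 1 to 3. Libraries 1 and 3 of both genotypes correlated best with their own number, and those of number 2 did not. This does not settle whether the numbers mark pairs, and the main test did not take them as pairs. With the replicate block 7834 genes were called in place of 7433, 20 pathway genes higher and 32 lower, and 8 contractile genes lower. The shallowest libraries, with 3 counts at 0.364 and 0.378 CPM, limit what can be said of genes such as Myocd.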

Other observations

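Markers of striated muscle were examined because the striated actins Acta1 and Actc1 fell. Of 16 cardiac muscle markers 13 were tested, of which 8 rose, 0 fell and 5 were not called (edgeR quasi-likelihood test, median log2 fold change 0.50), and their summed level was 60.0 to 83.7 CPM in the wild-type and 97.7 to 113 CPM in the knockout libraries. The most abundant, the giant filament gene Ttn, was at 39.5 ± 11.6 and 42.0 ± 4.07 CPM (edgeR adjusted p = 0.84, or 0.0087 if wild-type replicate 1 was left out). The natriuretic peptide gene Nppb rose from 5.64 ± 1.83 to 15.6 ± 2.06 CPM and the atrial light chain gene Myl4 from 4.48 ± 0.345 to 15.4 ± 0.934 CPM (log2 fold changes 1.46 and 1.74, edgeR adjusted p = 4.9e-06 and 4.7e-10). Tnnt2, cardiac troponin T, named after its values were seen, rose from 0.423 ± 0.202 to 6.12 ± 0.955 CPM. It had only 14, 4 and 3 counts in the wild-type libraries. Ryr2 rose by 0.37 (edgeR adjusted p = 0.043), a call lost in 8 alternatives, among them every one that left out a wild-type library (0.051 to 0.11) and those without knockout replicate 1 or 2 (0.22 and 0.076). Other calls on this list also turned on the setting, in genes named after their values were seen. Tnni3, cardiac troponin I, was at 2.70 ± 1.02 and 1.41 ± 0.521 CPM (log2 fold change -0.66, edgeR adjusted p = 0.051), and was called lower in 8 alternatives, among them without knockout replicate 2 (0.026) and wild-type replicates 1 and 3 (0.039 and 0.047). Actn2 rose by 0.50, a call lost in 5 alternatives, among them without knockout replicate 1 (0.15) and wild-type replicates 1 and 3 (0.13 and 0.16). The heart factor gene Nkx2-5 rose by 1.2, a call lost in DESeq2 (0.056) and without wild-type replicate 1 (0.053). Of 16 skeletal muscle markers only 5 passed the count filter, of which 1 rose and 1 fell, and the summed level of the list was 233 to 253 CPM in the wild-type and 178 to 194 CPM in the knockout libraries. Mylpf, the fast skeletal light chain gene, fell from 217 ± 9.95 to 156 ± 7.64 CPM (log2 fold change of -0.48, adjusted p = 7.2e-07 by edgeR). Myh3 rose by 0.57 (edgeR adjusted p = 0.015). That call was lost in DESeq2 (0.066) and without knockout replicate 1 or wild-type replicate 3 (0.082 and 0.092). Ryr1 and Chrna1 had log2 fold changes of 0.01 and 0.24 (edgeR adjusted p = 0.96 and 0.54).

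Of 10 endothelial and blood markers 5 were tested, of which 3 rose, 1 fell and 1 was not called, and Emcn and Hbb-bt had 0 counts in every library. The receptor gene Tie1 rose from 0.333 ± 0.253 to 19.8 ± 1.02 CPM (log2 fold change of 5.56, adjusted p = 6.8e-14 by edgeR). Wild-type libraries held only 15, 1 and 4 counts of Tie1, so the size of this change is uncertain. Tek rose from 12.7 ± 0.91 to 18.9 ± 0.64 CPM and Cd34 from 2.56 ± 0.21 to 8.34 ± 0.264 CPM. Cdh5, which defines endothelium and was named after its values were seen, was at 0.232 ± 0.101 and 0.43 ± 0.266 CPM and did not pass the count filter. Pecam1 was at 65.6 ± 5.24 and 71.1 ± 1.01 CPM (edgeR adjusted p = 0.12). The marker that fell was Kdr, also named after its values were seen. It went from 5.54 ± 1.88 to 3.2 ± 0.627 CPM with overlapping libraries (log2 fold change of -0.85, adjusted p = 0.0032 by edgeR).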
